A study of Mus musculus with 6 samples.

Results

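The cyclin-dependent kinase (CDK) inhibitors and the retinoblastoma family were followed across differentiation of C2C12 cells, an established mouse line of skeletal muscle myoblasts that fuse into multinucleated myotubes. The members were the 10 genes *Cdkn1a*, *Cdkn1b*, *Cdkn1c*, *Cdkn2a*, *Cdkn2b*, *Cdkn2c*, *Cdkn2d*, *Rb1*, *Rbl1* and *Rbl2*, found by symbol among the 54525 gene rows of the count tables, and all 10 were found. RNA-seq was performed on 3 samples of myoblasts on day 0 (D0) and 3 samples of myotubes after 5 days of differentiation (D5). All were of wild-type genotype, with no treatment besides the change of medium. The methods of the study give medium with fetal bovine serum for growth and with a lower share of horse serum for differentiation. Day and medium thus cannot be told apart. All 6 libraries came from 1 cell line, so the p-values measure the spread between samples of that line. Whether the samples were separate cultures is not stated in the sources used here. The D0 libraries held from 36555048 to 40895840 counts on genes and the D5 libraries from 25449759 to 25811300.

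A cell that divides carries cyclin-CDK complexes that phosphorylate the pocket proteins Rb, p107 and p130, the products of *Rb1*, *Rbl1* and *Rbl2*. Pocket proteins that lack this phosphate bind E2F factors and keep their target genes silent, Rb mainly with the activating E2Fs and p107 and p130 mainly with E2F4 and E2F5. CDK inhibitors act above this step in separate families: the Cip/Kip proteins p21, p27 and p57 (*Cdkn1a*, *Cdkn1b* and *Cdkn1c*) bind cyclin-CDK complexes, and the Ink4 proteins p16, p15, p18 and p19 (*Cdkn2a*, *Cdkn2b*, *Cdkn2c* and *Cdkn2d*) bind Cdk4 and Cdk6 themselves. Myoblasts leave the cell cycle for good before they fuse, and p21, p57 and Rb are the classical regulators of that exit.

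The promoters of *Cdkn1a*, *Rbl1* and *Rbl2* are shown here because *Cdkn1a* and *Rbl1* moved in opposite directions, as did *Rbl1* and its close relative *Rbl2*. Of the 10 members, 8 had entries in the RefSeq promoter table of GRCm38.p6, with 11 annotated starts in all. *Cdkn1c* and *Rb1*, which both rose, had no entry. Each line gives the 250 bases before a start, 5′ to 3′ on the strand of the gene, with the p53-type core and E-box in capitals at *Cdkn1a* and the E2F core at *Rbl1* and *Rbl2*, and other searched motifs left in lower case. The lines are *Cdkn1a* at its upstream start (chr17:29090729-29090978, plus strand), *Cdkn1a* at its downstream start (chr17:29093519-29093768, plus strand), *Rbl1* (chr2:157204535-157204784, minus strand) and *Rbl2* (chr8:91069807-91070056, plus strand).
Cdkn1a, upstream start: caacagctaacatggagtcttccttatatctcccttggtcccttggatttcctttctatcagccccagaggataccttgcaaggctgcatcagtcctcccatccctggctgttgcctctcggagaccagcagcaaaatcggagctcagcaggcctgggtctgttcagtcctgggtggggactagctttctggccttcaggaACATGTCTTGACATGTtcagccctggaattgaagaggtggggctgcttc
Cdkn1a, downstream start: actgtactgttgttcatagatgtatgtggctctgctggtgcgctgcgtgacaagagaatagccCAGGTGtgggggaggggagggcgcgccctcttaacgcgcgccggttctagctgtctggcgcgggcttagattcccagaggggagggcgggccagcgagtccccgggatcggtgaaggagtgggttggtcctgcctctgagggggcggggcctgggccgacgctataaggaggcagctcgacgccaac
Rbl1: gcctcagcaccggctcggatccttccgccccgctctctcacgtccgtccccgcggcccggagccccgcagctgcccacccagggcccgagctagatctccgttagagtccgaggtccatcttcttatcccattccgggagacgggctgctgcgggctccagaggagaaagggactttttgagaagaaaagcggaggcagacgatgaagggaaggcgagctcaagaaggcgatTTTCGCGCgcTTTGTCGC
Rbl2: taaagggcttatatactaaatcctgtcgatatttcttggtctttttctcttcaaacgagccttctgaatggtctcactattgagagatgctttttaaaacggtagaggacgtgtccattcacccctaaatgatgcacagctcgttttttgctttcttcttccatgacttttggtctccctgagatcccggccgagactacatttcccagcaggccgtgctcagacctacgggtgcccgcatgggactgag
Both strands were searched for CANNTG (the E-box that myogenic factors of the MyoD family recognize), CAGCTG (1 form of it), TTTNNCGC (the core of E2F sites), TTTGAA (the CHR element), GGGCGG (the GC box of Sp1) and ACATGT repeated after any 4 bases, a core of the p53 site whose letters were chosen after the *Cdkn1a* sequence was seen. At the upstream start of *Cdkn1a* the capitals mark the p53-type core, which began 49 bases before the start and occurred in 4 of 32851 promoters (0.0122%). At the downstream start they mark an E-box that began 187 bases before the start, a motif held by 66.2% of all promoters. The capitals at *Rbl1* mark a pair of E2F cores that began 18 and 8 bases before the start. That core was held by 4.28% of all promoters and gave no match in the window of *Rbl2*, whose sequence is shown beside it for that comparison. *Cdkn2a*, which had 0 counts in every library, also held the E2F core at both annotated starts (99 and 244 bases before). *Cdkn2c*, which fell, held none at either start. In lower case, the downstream start of *Cdkn1a* also held a pair of GC boxes (beginning 104 and 46 bases before the start, a motif of 32.7% of promoters). *Rbl1* held a CAGCTG E-box (183 bases before the start, 13.0% of promoters) and a GC box (226 bases), and *Rbl2* a CHR element (201 bases, 16.0% of promoters). Among members not shown, *Cdkn1b*, *Cdkn2a*, *Cdkn2c* and *Cdkn2d* also held GC boxes. *Cdkn2b*, with 0 counts in every library, held a CHR element (161 bases) and an E-box (37 bases). A match is a run of letters and was not tested as a binding site.

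The 2 days were compared with the quasi-likelihood test of edgeR under TMM scaling, with Benjamini-Hochberg adjustment across the 16290 genes that passed the filter on low counts. Levels are given as CPM (counts per 1000000 counts after TMM scaling) or, between genes, as TPM (which also divides by exonic length). Most of the transcriptome differed between D0 and D5: 42.2% of genes tested were higher and 40.8% lower at an adjusted p under 0.05 (82.9% in either direction). Every D5 library lay above every D0 library for 42.2% of genes and below it for 41.1%. Of the 10 members, 8 passed the filter, of which 4 rose (*Cdkn1a*, *Cdkn1c*, *Rb1* and *Rbl2*), 2 fell (*Cdkn2c* and *Rbl1*) and 2 did not pass the test (*Cdkn1b* and *Cdkn2d*). Each of the 4 members that rose was at least 2-fold higher, as were 19.3% of genes tested, and both that fell were at least 2-fold lower, as were 16.0%. The shares of members called were thus read only beside these backgrounds. In bulk RNA, fewer cells of a type and less RNA per cell cannot be told apart.

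**Figure D1:**
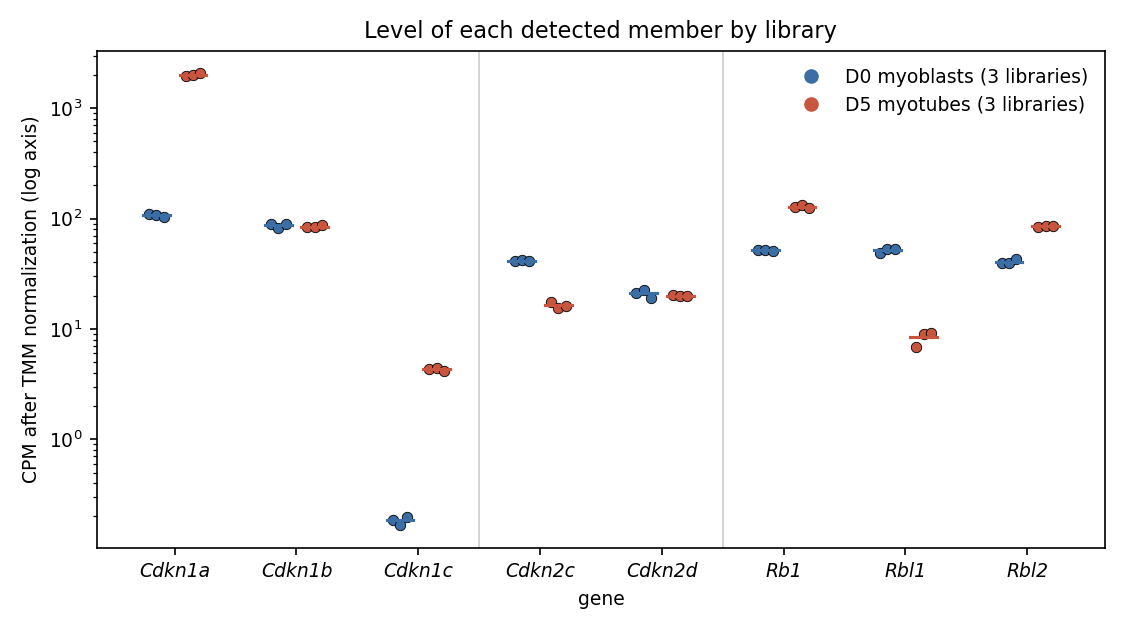
Level of the 8 detected members in each library, as CPM after TMM scaling on a log axis, with D0 libraries in blue, D5 libraries in red and a bar at each group's mean. *Cdkn1a* stood near 107 CPM at D0 and near 2006 CPM at D5, *Rbl1* moved the other way, and the D0 and D5 libraries of *Cdkn1b* and *Cdkn2d* overlapped.

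Within the Cip/Kip family, *Cdkn1a* rose 18.7-fold to one of the highest levels of any gene, *Cdkn1c* rose 23.1-fold from near the limit of detection, and *Cdkn1b* stayed within the spread of its replicates. *Cdkn1a*, on chromosome 17 (29090976 to 29100727, plus strand, GRCm38), encodes p21, the inhibitor that MyoD and p53 are both known to induce. It had 111, 108 and 104 CPM in the 3 D0 libraries and 1972, 1978 and 2069 CPM in the 3 D5 libraries. Every D5 library lay far above every D0 library. The log2 fold change was 4.22 ± 0.038 (SE, n = 3 per group, edgeR adjusted p = 7.9e-37). By TPM the gene went from rank 1514 at D0 to rank 44 at D5, and 5.07% of genes tested had a log2 fold change at least as large.

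*Cdkn1c*, on chromosome 7 (143458339 to 143461050, minus strand), encodes p57 and is imprinted, with the maternal copy active. Its counts were 7, 7 and 8 at D0 and 110, 110 and 103 at D5, that is 0.184 ± 0.0163 CPM (SD, n = 3) and 4.33 ± 0.168 CPM (SD, n = 3). The groups did not overlap, and the log2 fold change of 4.53 ± 0.22 (SE) had an edgeR adjusted p of 6.1e-18. Its 95% interval of 4.08 to 4.98 holds the value of *Cdkn1a*, and the difference between the genes was not tested. In level *Cdkn1c* reached 6.58 TPM at D5 and *Cdkn1a* 1751 TPM. Of its exonic length, 30.7% overlapped *Gm44732* on the opposite strand. The strand setting of the counting is not stated, and *Gm44732* had 0 counts in each D0 library and from 1 to 4 at D5. The part of reads from *Gm44732* in the rise of *Cdkn1c* was not tested.

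*Cdkn1b*, on chromosome 6 (134920401 to 134925513, plus strand), encodes p27, whose level is set to a large part by protein turnover. It had 89.1, 82.3 and 90.0 CPM at D0 and 84.1, 83.1 and 86.7 CPM at D5. The D5 libraries lay within the range of the D0 libraries. The log2 fold change was −0.042 (95% interval −0.12 to 0.038, edgeR adjusted p = 0.317). The gene was called lower when scaled by total counts (−0.13, adjusted p = 0.0039), without a filter on low counts (−0.095, adjusted p = 0.038) and without D0 replicate 2, the lowest D0 library (−0.092, adjusted p = 0.048).

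The makeup of the family shifted with *Cdkn1a*. Per exonic length, *Cdkn1a* made up 61.3%, 62.5% and 59.6% of Cip/Kip TPM at D0 and 96.4%, 96.5% and 96.5% at D5. *Cdkn1b* took 38.7% ± 1.46 at D0 and 3.18% ± 0.0305 at D5 (SD, n = 3), and *Cdkn1c* stayed under 1% in every library. The summed level of the family went from 171 ± 2.60 to 1815 ± 50.1 TPM (SD, n = 3). The libraries of both groups were fully apart for each of these shares, and the exact two-sided permutation test gave p = 0.1, the smallest it can give for 3 against 3. With the longest transcript in place of the exonic length, the share of *Cdkn1a* differed by 25.0 points in place of 35.3.

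The Ink4 family held a pair of genes that were not detected and a pair that were. *Cdkn2a* (chromosome 4, 89274471 to 89294653, minus strand) encodes p16 and, from another reading frame, p19Arf, the protein that restrains Mdm2. *Cdkn2b* (chromosome 4, 89306299 to 89311039, minus strand) encodes p15. Both had 0 counts in each of the 6 libraries. Over the 193309727 counts of all libraries, a count of 0 allows a level of up to 0.0154 CPM, and in single libraries from 0.0714 to 0.122 CPM, limits that cover counting error only.

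The annotated neighbours of *Cdkn2a* and *Cdkn2b* within 500 kb on 1 side all had 0 counts, as did many on the other side. Some of the latter lie between *Mtap* and *Cdkn2a*. Over all 54525 gene rows, 16290 passed the filter on low counts, and the share of rows with 0 counts in every library was not computed. Of the 40 annotated genes within 500 kb, the 7 from *Cdkn2a* to the end of the window on the side of *Dmrta1* had no count in any library, *Dmrta1* itself and *Gm12610* among them. Besides the members, *Dmrta1* is the only protein-coding gene of these, and the others are noncoding RNAs or a pseudogene. The nearest gene on the other side, *Gm12606*, had 6, 3 and 0 counts at D0 and 0, 0 and 1 at D5. On the other side *Mtap*, which encodes an enzyme of methionine salvage, had 6044, 6660 and 6604 counts at D0 and 1215, 1159 and 1265 at D5. *Mtap* fell by 1.73 on the log2 scale (SE 0.038, edgeR adjusted p = 5.4e-27) but was well measured in every library. The 23 protein-coding genes of the window comprised the members, *Mtap*, *Dmrta1* and 19 interferon and interferon-like genes. Of the 21 that are no members, only *Mtap* and *Ifne* passed 3 counts in a library, *Ifne* with 2, 2 and 4 at D0 and 0, 0 and 1 at D5. Counts of RNA do not show whether the DNA of this stretch is present in the cells, which was not tested.

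**Figure D2:**
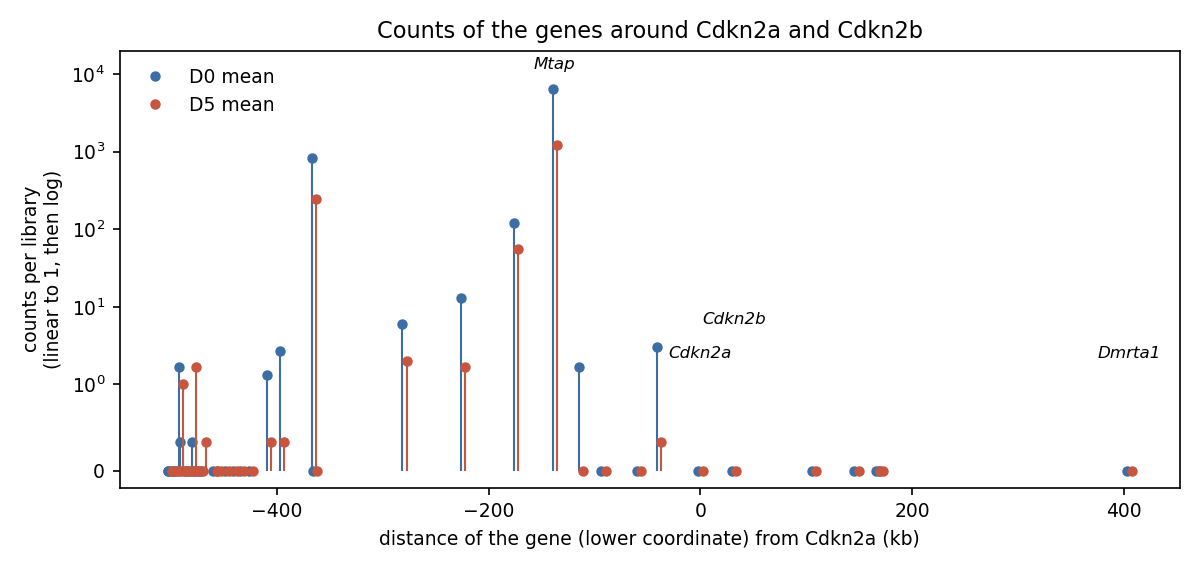
Mean counts per library at D0 (blue) and D5 (red) of the 40 annotated genes within 500 kb of *Cdkn2a* and *Cdkn2b*, against distance from *Cdkn2a* in kb, with a count axis that is linear up to 1 and logarithmic above. On the left *Mtap* and some other genes hold counts and many genes are at or near 0. The 7 genes from *Cdkn2a* to the right edge are at 0.

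*Cdkn2c* (chromosome 4, 109660876 to 109667189, minus strand) encodes p18, which binds Cdk4 and Cdk6. It had 41.0, 41.9 and 41.3 CPM at D0 and 17.4, 15.5 and 16.2 CPM at D5. The D5 libraries all lay below the D0 libraries, at 39.5% of the D0 level. The log2 fold change was −1.34 ± 0.053 (SE, edgeR adjusted p = 2.1e-20), opposite in direction to that of *Cdkn1a* and *Cdkn1c*.

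*Cdkn2d* (chromosome 9, 21288410 to 21291407, minus strand) encodes p19Ink4d. Its levels were 21.4, 22.5 and 19.2 CPM at D0 and 20.1, 19.96 and 19.9 CPM at D5. The D5 values fell between the D0 values, and the log2 fold change of −0.074 (95% interval −0.20 to 0.049) did not pass edgeR's test (adjusted p = 0.255). It was called lower with total counts (−0.16, adjusted p = 0.0154) and without D0 replicate 3, the lowest D0 library (−0.15, adjusted p = 0.028). Per exonic length, the ratio of *Cdkn2c* to *Cdkn2d* went from 1.16 ± 0.0886 to 0.480 ± 0.0262 (SD, n = 3), and the summed Ink4 level from 99.5 ± 3.60 to 58.2 ± 2.48 TPM.

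In the pocket protein family, *Rb1* and *Rbl2* rose and *Rbl1* fell to 16.2% of its D0 level. *Rbl1* (chromosome 2, 157145893 to 157204534, minus strand) encodes p107, the pocket protein known to be abundant in cycling cells and itself an E2F target. The part of the E2F cores of its promoter in its change was not tested. *Rbl1* had 49.0, 53.5 and 53.1 CPM at D0 and 6.89, 9.09 and 9.20 CPM at D5. D5 replicate 1 was the lowest of its group, and every D5 library was far below every D0 library. The log2 fold change was −2.63 ± 0.069 (SE, edgeR adjusted p = 5.6e-25), and 3.996% of genes tested fell at least as far.

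*Rb1* (chromosome 14, 73183673 to 73325822, minus strand) encodes Rb, the founding tumour suppressor of the family. It had 52.4, 51.7 and 50.5 CPM at D0 and 127, 132 and 126 CPM at D5, a 2.496-fold rise with no overlap. The log2 fold change was 1.32 ± 0.037 (SE, edgeR adjusted p = 2.8e-24). *Rb1* shared 14.9% of its exonic length with *Lpar6* and *Rcbtb2* on the opposite strand. *Lpar6* fell by 1.27 on the log2 scale and *Rcbtb2* did not pass the test (−0.026). The part of reads from either gene in the rise of *Rb1* was not tested.

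*Rbl2* (chromosome 8, 91070057 to 91123844, plus strand) encodes p130, the pocket protein known to dominate in cells that have left the cycle. Its levels were 39.2, 39.7 and 43.1 CPM at D0 and 84.4, 85.2 and 85.2 CPM at D5. The D5 libraries were all above the D0 libraries, 2.09-fold on average, with a log2 fold change of 1.06 ± 0.041 (SE, edgeR adjusted p = 1.8e-20). *Rbl2* shared 20.97% of its exonic length with *Aktip* and *Gm45464* on the opposite strand, and *Aktip* rose by 1.45 on the log2 scale, from between 933 and 1091 counts to between 1613 and 1732. The part of reads from *Aktip* in the rise of *Rbl2* was not tested.

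The ERCC spike-ins, synthetic RNAs that took from 0.726% to 0.859% of counts at D0 and 1.20%, 0.720% and 2.09% in D5 replicates 1, 2 and 3, gave another scale, which shifted the median log2 fold change of all genes tested from 0.0022 to −0.58. On that scale 1813 genes were called higher and 3747 lower. Tested against no change on the spike-in scale, *Cdkn1a* (3.65), *Cdkn1c* (3.97), *Cdkn2c* (−1.92) and *Rbl1* (−3.20) kept their calls. *Rb1* had 0.77 (adjusted p = 0.248) and *Rbl2* 0.49 (adjusted p = 0.479), above the median of all genes but no longer past the threshold. The standard error of each was 0.52 on that scale, beside 0.037 and 0.041 under TMM scaling.

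**Figure D3:**
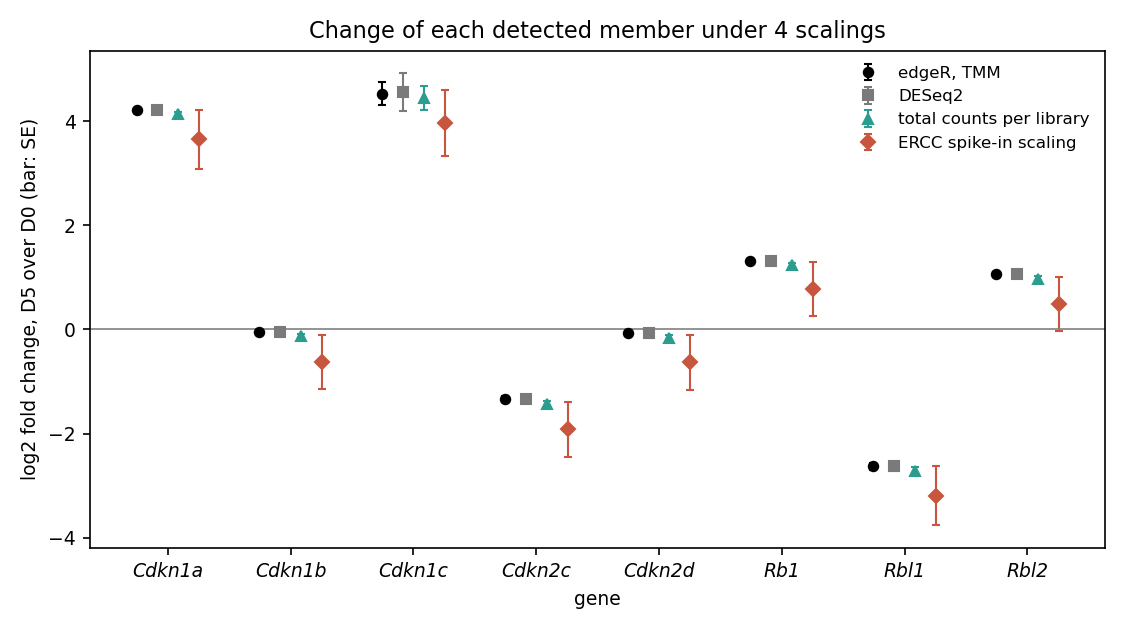
Log2 fold change of D5 over D0 for each detected member with its standard error, by edgeR with TMM scaling (black), DESeq2 (grey), total counts per library (green) and ERCC spike-in scaling (red). The first 3 lie close together, and with spike-ins each value is lower by about 0.58 with wide bars, where *Rb1* and *Rbl2* are no longer called.

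Family makeup does not depend on the scaling between libraries. Of the pocket protein TPM at D0, *Rb1* took 39.5%, 37.7% and 36.6% and *Rbl1* 37.1%, 39.2% and 38.6%, so both were at about the same level per length. At D5 *Rb1* took 63.2%, 63.3% and 62.0% and *Rbl1* 3.43%, 4.36% and 4.55%. The share of *Rbl2* went from 23.8% ± 0.929 to 33.0% ± 0.574 (SD, n = 3). The ratio of *Rb1* to *Rbl1* went from 0.992 ± 0.0640 to 15.5 ± 2.56, whereas that of *Rb1* to *Rbl2* moved only from 1.60 ± 0.110 to 1.90 ± 0.0487. All of these values were fully apart between groups (exact two-sided permutation p = 0.1, the smallest possible).

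**Figure D4:**
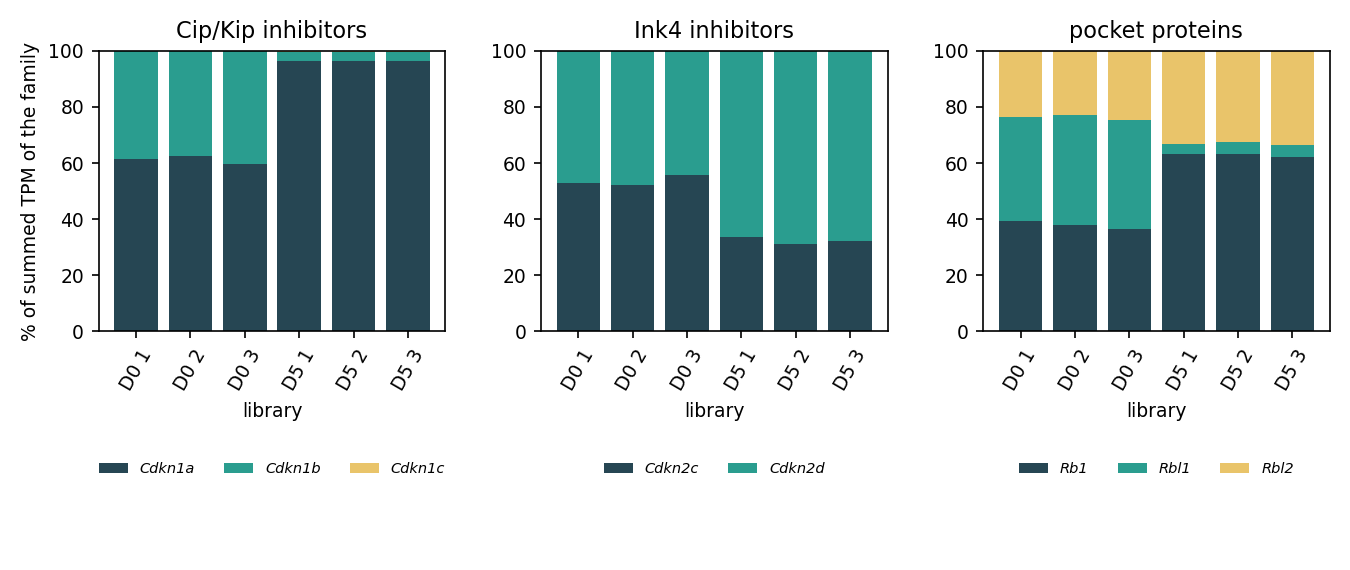
Share of each gene in the summed TPM of its family, in percent, for the 3 D0 and 3 D5 libraries, with the bars of 1 library adding to 100. *Cdkn1a* fills 96.5% of Cip/Kip RNA at D5, *Cdkn2d* overtakes *Cdkn2c*, and *Rbl1* shrinks to 4.11% of pocket protein RNA. *Cdkn1c* is under 1% and hardly visible.

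The kinases that the inhibitors bind fell. Of the 5 D-type cyclins and partner kinases tested, 4 fell and 1 rose, with a median log2 fold change of −1.96 beside 0.0022 over all genes tested. *Cdk4* went from 352 ± 4.33 to 88.1 ± 1.93 CPM (SD, n = 3; log2 fold change −1.998) and *Cdk6* changed by −2.48, *Ccnd2* by −1.96 and *Ccnd1* by −0.79. The exception was *Ccnd3*, the D-type cyclin known to be kept in muscle, which went from 158 ± 3.92 to 380 ± 16.0 CPM (log2 fold change 1.27, edgeR adjusted p = 2.1e-24), a rise not called with spike-in scaling (0.72, adjusted p = 0.284). *Ccnd3* made up 9.96% ± 0.239 of the TPM of these 5 genes at D0 and 50.2% ± 0.510 at D5.

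All 7 tested genes among *Cdk2*, *Cdk1* and cyclins E, A and B fell, with a median of −4.40, and *Ccna1* had 0 counts in every library. *Cdk2*, the kinase bound by p21 and p27, fell by 0.56 only and was not called with spike-in scaling (adjusted p = 0.085). *Cdk1* changed by −4.40, *Ccne1* by −3.89, *Ccne2* by −3.54, *Ccna2* by −5.17, *Ccnb1* by −5.03 and *Ccnb2* by −4.90. Per exonic length, *Cdkn1a* RNA was 2.55 ± 0.0679 times that of *Cdk2* at D0 and 70.5 ± 4.002 times at D5 (SD, n = 3). Against *Cdk4* the ratio went from 0.279 ± 0.00928 to 20.8 ± 0.891. These are ratios of RNA and say nothing of the bound proteins.

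The regulators of p27 turnover moved in both directions. The parts that recognize p27 in the nucleus fell, namely the F-box protein *Skp2* (−1.997) with its cofactor *Cks1b* (−3.13), and the related *Cks2* (−3.40). Within the core of the same ubiquitin ligase, *Cul1* (0.67) and *Skp1a* (0.86) rose under TMM scaling. *Rbx1* had 0.10, a call lost with total counts, without a filter and without D0 replicate 2 (adjusted p = 0.0695) or 3 (adjusted p = 0.143), and its value turned to −0.45 with spike-in scaling. *Rnf123* and *Ubac1*, the subunits of the cytoplasmic ligase for p27, rose by 0.50 and 0.83, and *Rnf123* turned to −0.064 with spike-ins. Of the 8 genes, 5 were called higher and 3 lower, and with spike-in scaling edgeR called 0 higher (also 0 at an unadjusted p under 0.05) and 3 lower. *Cdkn1b* RNA itself had no call beside these changes.

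The p53 group was read beside *Cdkn1a*, a classical p53 target, and its part in the rise of *Cdkn1a* was not tested. *Trp53* fell, from 111 ± 3.01 to 47.0 ± 0.957 CPM (SD, n = 3; log2 fold change −1.24, edgeR adjusted p = 5.2e-23). Its relative *Trp63* rose from 4, 7 and 4 counts to 1096, 1018 and 1117 (log2 fold change 8.39 ± 0.12, SE, adjusted p = 1.1e-31), and *Trp73* had at most 2 counts in a library. *Mdm2*, which encodes the ligase of p53 and is itself a p53 target, had 0.24 (−0.33 with spike-ins). *Mdm4* (−0.61) and the deubiquitinase *Usp7* (−0.43) fell, and the call of the phosphatase *Ppm1d* (−0.16) was lost with DESeq2 (adjusted p = 0.115), with spike-in scaling and without each of D0 replicate 3, D5 replicate 1 and D5 replicate 3 (adjusted p from 0.0588 to 0.140). In all 2 of these 6 genes were called higher and 4 lower, and 1 and 1 with spike-in scaling.

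Among 15 other p53 targets, 9 were called higher, 5 lower and 1 had no call, with a median log2 fold change of 0.93. Over all genes tested 42.2% were higher and 40.8% lower. The death receptor genes *Eda2r* and *Fas* (both 3.24) and *Ei24* (1.70) rose most, and *Gdf15* (−2.60), *Sesn2* (−0.96) and *Bax* (−0.60) fell most. *Cdkn1a* lay above all 15. With spike-in scaling 2 were called higher and 2 lower.

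The E2F factors and their DP partners, not all of which bind pocket proteins, did not move as a block. Of the activators, *E2f1* (−2.06) and *E2f3* (−0.95) fell and *E2f2* rose, from 22.1 ± 1.15 to 97.3 ± 3.98 CPM (SD, n = 3; log2 fold change 2.14, edgeR adjusted p = 2.5e-27). The partners *Tfdp1* and *Tfdp2* had −0.64 and 0.12, the second of which turned to −0.43 with spike-ins. *E2f4* and *E2f5*, the usual partners of p107 and p130, were close to flat, at 0.13 (−0.42 with spike-ins) and −0.27. Of the other repressors *E2f6* rose (0.70) whereas the atypical *E2f7* (−5.64) and *E2f8* (−1.95) fell. Each of these lists of 5 genes had 2 called higher and 3 lower. The calls of *Tfdp2* and *E2f4* were lost without D0 replicate 1 (adjusted p = 0.0896 and 0.1003), with total counts and without a filter, which left 1 higher in each list, and with spike-in scaling edgeR called 1 activator higher and 2 lower, and 0 repressors higher (also 0 at an unadjusted p under 0.05) and 2 lower.

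With p130 the MuvB core forms the DREAM complex that silences cell cycle genes in resting cells, and with *Mybl2* and *Foxm1* it activates them in cycling cells. Both activating partners fell strongly, *Mybl2* with a log2 fold change of −5.61 and *Foxm1* with −4.79. Of the MuvB core, *Lin9* (−1.97), *Lin54* (−1.46) and *Rbbp4* (−0.20) fell, *Lin37* had 0.44 (−0.14 with spike-ins) and *Lin52* had no call (−0.11, edgeR adjusted p = 0.23). *Lin52* was called lower with total counts (adjusted p = 0.0393). Of these 7 genes 1 was called higher and 5 lower, with a median of −1.46. With spike-in scaling edgeR called 0 higher (also 0 at an unadjusted p under 0.05) and 4 lower, and *Rbbp4* lost its call (−0.76, adjusted p = 0.252). Among 11 corepressors that pocket proteins recruit, 4 were called higher and 7 lower, with a median of −0.63, and with spike-in scaling 1 and 5. *Smarca2* (1.90), *Arid4a* (0.47) and *Sin3b* (0.42) rose most, of which *Arid4a* and *Sin3b* turned to −0.12 and −0.14 with spike-ins, and *Suv39h1* (−2.82), *Dnmt1* (−2.35) and *Hdac1* (−0.99) fell most.

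The listed target genes all fell, whereas over all genes tested 40.8% were lower. All 20 E2F targets of S phase fell, with a median log2 fold change of −3.11 and a range from −5.38 to −1.37. All 14 genes listed as silenced through the CHR element also fell, with a median of −5.20 and a range from −5.65 to −4.06. The part of pocket proteins, E2F sites or CHR elements in these falls was not tested. Both counts stood at 20 and 14 with spike-in scaling too. *Mcm10* (−5.38), *Cdc6* (−5.27) and *Mcm5* (−4.71) led the S phase genes, which load and fire replication origins. *Bub1* (−5.65), *Cdc25c* (−5.63) and *Plk1* (−5.52) led the mitotic genes. Beside them *Rbl1*, at −2.63, fell less than the median S phase gene.

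**Figure D5:**
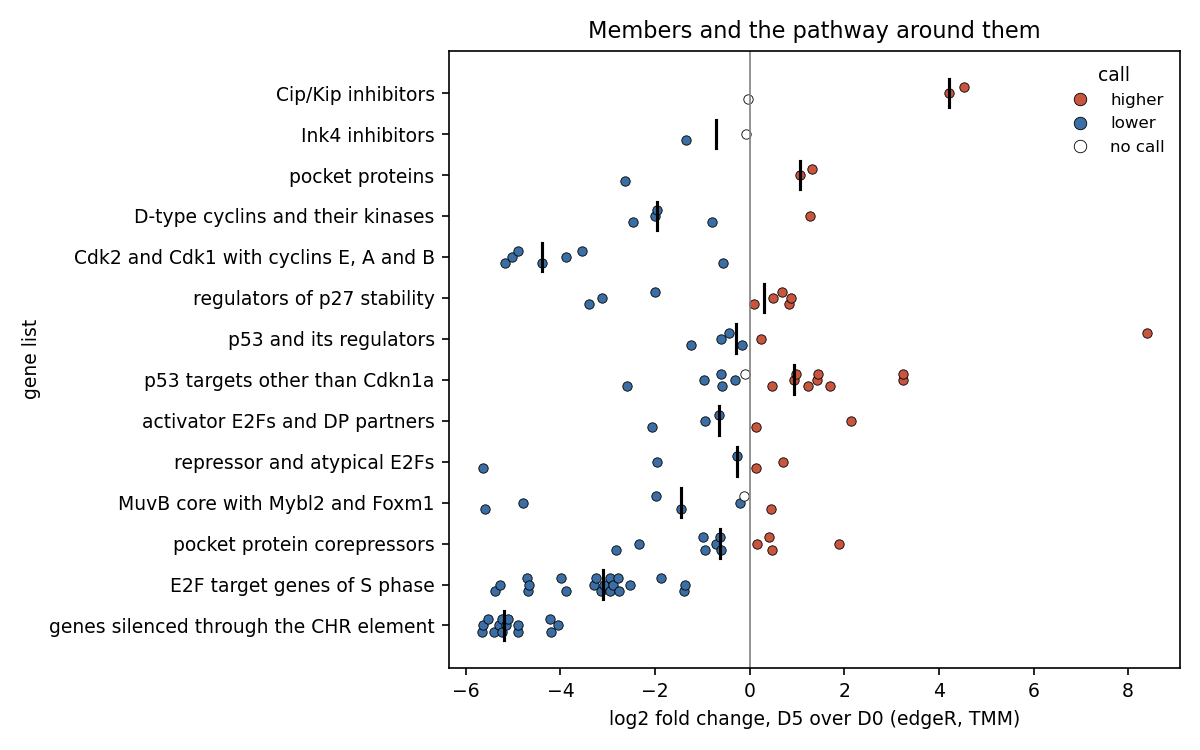
Log2 fold change of D5 over D0 for each tested gene of the member families and the lists around them, red where called higher, blue where called lower and white with no call, with a bar at each list's median. The 20 S phase and 14 CHR genes all lie below 0, the E2F lists lie on both sides, and under spike-in scaling points shift left by about 0.58, which takes small positive values such as *E2f4* and *Mdm2* below 0.

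The genes with the closest pattern to 4 members were sought among the 11887 genes that averaged 100 counts or more in 1 group, by the root-mean-square difference of log2 CPM relative to each gene's own D0 mean over the 6 libraries. Closest to *Cdkn1a* were *Gm5532* (0.0402), *Adssl1* (0.0414) and *Ephb3* (0.0537). Closest to *Cdkn1c* were *Cd34* (0.0447), *Itgb1bp2* (0.0678) and *Gm12439* (0.0930). Among the closest to *Rb1* were *Coro6* (0.0105) and *AU022252* (0.0132), and closest to *Rbl1* were *Fyb2* (0.0987), *Plekhg3* (0.106) and *Marcksl1* (0.108). With 2 groups of libraries, such likeness reflects mainly a like size of change, and nothing follows from it for shared control.

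The labels were checked against markers of muscle. Of 10 myoblast and myotube markers, 8 rose, with *Myh3* going from 1.70 ± 0.362 to 4702 ± 174 CPM (SD, n = 3), *Mymk* at a log2 fold change of 9.02 and *Ckm* at 8.30, and *Myod1* (−0.71) and *Myf5* (−2.32) fell. D5 cultures of C2C12 also hold undifferentiated reserve cells, and of 8 reserve cell markers 7 were tested, of which 4 rose (*Cd34* by 4.53, *Spry1* by 3.83, *Sdc4* by 0.36 and *Notch3* by 0.27, the last pair at −0.23 and −0.30 with spike-ins) and 3 fell (*Hey1* at −2.68, *Myf5* at −2.32 and *Pax7* at −1.71), while *Calcr* had 0 counts. Their summed level was between 340 and 346 CPM at D0 and between 347 and 357 CPM at D5, with rises and falls that offset. Within that sum *Myf5*, also listed as a myoblast marker, went from 123 to 24.6 CPM and *Cd34* from 2.16 to 49.8 CPM (means). The part of reserve cells in the levels of the members was not tested. Leukocyte markers summed to between 3.16 and 3.39 CPM at D0 and between 2.09 and 3.17 at D5, most of it *Cd68* (log2 fold change −0.50, not called with spike-in scaling). *Itgam* had 0 counts at D0 and 10, 13 and 5 at D5, *Csf1r* had 5 counts or fewer, *Adgre1* had 0, and *Ptprc* and *Cd3e* had 3 or fewer.

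Endothelial markers summed to between 3.31 and 3.59 CPM at D0 and 0.518 and 0.884 at D5, as *Kdr* (−3.52) and *Tek* (−1.49) fell. *Pecam1* had 7 counts or fewer, *Cdh5* 3 or fewer, and *Tie1* and *Emcn* had 0. Adipocyte markers summed to at most 0.285 CPM, with *Fabp4* at 11 counts or fewer, *Adipoq* and *Plin1* at 1 or fewer and *Cfd*, *Lep* and *Cidec* at 0. Osteoblast markers were not near 0, with sums between 109 and 114 CPM at D0 and 41.9 and 43.6 at D5, nearly all of it *Runx2* (−1.40). *Dmp1* rose from 2, 4 and 4 counts to 13, 22 and 12 (log2 fold change 2.86), whereas *Bglap* had 5 counts or fewer, *Sp7* 4 or fewer, *Alpl* 2 or fewer and *Ibsp* 0. The part of any of these cell types in the levels of the members was not tested.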

How the data were processed

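Total RNA of 3 D0 and 3 D5 samples of C2C12 cells was sequenced. The authors aligned the reads to GRCm38 and deposited raw counts per gene for each library, made with featureCounts per the labels, which also list DESeq2 1.6.3. The labels name Tophat2 as the aligner and the methods of the study name HISAT2, and strand setting, annotation release and handling of reads with several matches are not given in the sources used here. A row equal to the column total and 92 ERCC rows were left out of library sizes. Samples were grouped by the day in their titles.

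From the counts, CPM, TPM (GENCODE M21 exonic lengths), fold changes and p-values were computed with edgeR 4.0.16 (TMM, filterByExpr, quasi-likelihood test, threshold 0.05) in R 4.3.3. Standard errors are on the log2 scale. Genes with 3 counts or fewer in a library were treated as not detected. Chi-square divided by its degrees of freedom was 2.28 to 3.71 between replicates, above sampling noise. Scripts were tested on simulated data. The alternatives were DESeq2 1.42.0, total counts, upper-quartile factors, ERCC scaling, no filter, the replicate number as a block and leaving out each library.

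The members, gene lists and tests were chosen with earlier results of these data known. Named are all members, every gene of a list of at most 8 genes, otherwise the 3 with the largest rise and fall among those called and those not detected, the 3 closest patterns for *Cdkn1a*, *Cdkn1c*, *Rb1* and *Rbl1*, and protein-coding genes within 500 kb of *Cdkn2a* and *Cdkn2b*, of which the interferon genes other than *Ifne* are given as a group. One gene of the closest patterns is not reported here. Promoters are from RefSeq.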

Additional observations from a re-analysis of the deposited data

How the results depend on the processing

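Of the 8 members tested, *Cdkn1a*, *Cdkn1c*, *Cdkn2c* and *Rbl1* kept their direction and call in all 12 alternatives, with log2 fold changes from 3.65 to 4.24, 3.97 to 4.57, −1.92 to −1.30 and −3.20 to −2.50. With spike-in scaling 2 members were called higher in place of 4, and 1813 genes were higher and 3747 lower, and *Rb1* and *Rbl2* lost their calls. With total counts 4 members were called lower in place of 2, as *Cdkn1b* and *Cdkn2d* were added. When each library was left out in turn, 4 members were higher and from 2 to 3 lower, from 6723 to 6936 genes were higher and from 6513 to 6663 lower, and the share of *Cdkn1a* in Cip/Kip TPM rose by 34.6 to 36.0 points and that of *Rbl1* in pocket protein TPM differed by −34.8 to −33.7 points. Samples with the same replicate number hardly deviated together (correlations 0.0329, 0.0645 and 0.0277), although each correlated best with its own number, so the numbers were not taken as pairs. With the replicate block, 4 members were higher and 2 lower, and no call of a named gene changed. With spike-in scaling the sign turned for *Arid4a* (−0.12), *E2f4* (−0.42), *Hacd4* (−0.11), *Klhl9* (−0.31), *Lin37* (−0.14), *Mdm2* (−0.33), *Notch3* (−0.30), *Rbx1* (−0.45), *Rnf123* (−0.064), *Sdc4* (−0.23), *Sin3b* (−0.14) and *Tfdp2* (−0.43), and 17 of the other named genes lost their call. The small positive changes of *E2f4*, *Tfdp2* and *Rbx1* were also not called with total counts or without a filter, and lost their calls without D0 replicate 1 (*E2f4*, *Tfdp2*) or without D0 replicate 2 or 3 (*Rbx1*). The cause of these differences was not tested.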

Other observations

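*Cdkn1c* lies in an imprinted domain, and listed genes around it, not all of that domain, were read beside it. Of 12 listed genes 7 were tested, of which 6 were called higher and 1 lower, with a median log2 fold change of 0.59. *Tspan32* rose most, from 12, 21 and 15 counts at D0 to 575, 675 and 607 at D5 (log2 fold change 5.94, edgeR adjusted p = 3.2e-27). *Slc22a18* had 3, 2 and 3 counts at D0 and 22, 18 and 15 at D5, and *Ins2* had 1, 5 and 4 counts at D0 and 18, 18 and 24 at D5. *Kcnq1ot1*, the long RNA of the paternal copy that silences the domain in cis, fell by 0.61 on the log2 scale (edgeR adjusted p = 4.3e-13) but was not called with spike-in scaling (adjusted p = 0.0571). *Ascl2*, *Phlda2* and *Th* had 0 counts in every library. With spike-in scaling edgeR called 3 of these genes higher and 0 lower, with 1 lower at an unadjusted p under 0.05.

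Of 9 listed neighbours of *Cdkn2a* and *Cdkn2b*, some of them beyond the window described above, 5 were tested, of which 4 were called higher and 1, *Mtap*, lower. With DESeq2 and without a filter 2 were called lower. *Elavl2*, which did not pass the filter and was chosen after its values were seen, had 8, 6 and 7 counts at D0 and 0, 0 and 1 at D5. *Focad* had 0.94, *Hacd4* 0.46 and *Klhl9* 0.25 on the log2 scale under TMM scaling, and with spike-in scaling edgeR called 0 of the list higher (also 0 at an unadjusted p under 0.05), with *Hacd4* at −0.11 and *Klhl9* at −0.31.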
